A study of Mus musculus with 6 samples.

Results

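Secondary granule genes of maturing neutrophils were measured in bone marrow from mice of the strains C57B/L6 and B.D(Chr5). The 10 genes were Ltf, Camp, Ngp, Lcn2, Mmp8, Mmp9, S100a8, S100a9, Chil3 and Hp, and their probe sets were found by the platform's gene symbol. They had 12 of the 45037 probe sets that are not controls on the Affymetrix mouse expression array, 11 of them listed for a single gene and 1 listed for both Chil4 and Chil3. Each strain had 3 arrays, and each array held RNA of 1 sample, labelled a biological replicate. The C57B/L6 group and the B.D(Chr5) group both consisted of adult females aged 6 to 16 weeks, and the labels name no treatment. For B.D(Chr5) they give the genetic background only as B.D and do not say how the strain was made. They also do not say whether a sample came from 1 animal or from several, so p-values reflect only the spread among samples, part of which may be technical. All cells had been enriched for haematopoietic stem and progenitor cells by removing cells that carry lineage markers; the markers used are not named in the labels.

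A neutrophil builds its granules in a fixed order while it matures. Promyelocytes fill the primary granules with myeloperoxidase and serine proteases, and the later myelocytes and metamyelocytes switch to the secondary (specific) granules, whose classical content is lactoferrin, the cathelicidin peptide and collagenase, before gelatinase granules form. Transcription factors of the C/EBP family, with C/EBP-epsilon for the late stage, and PU.1 drive these genes. RNA for secondary granule proteins is therefore a textbook sign of myelocytes and later stages, cells that mature beyond the stem and progenitor stage.

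Upstream windows are shown for Ltf and Camp, the 2 genes that varied most closely together, for Chil3, which departed from the others, and for Chil4, its relative on the same chromosome that shares a probe set with it. RefSeq (GRCm38.p6) windows of 250 bases before the gene start were available for 8 of the 10 genes, all but Mmp9 and Hp, and for Chil4. Capitals mark TTNNGCAA on either strand (C/EBP type), GAGGAA on either strand (PU.1 core) and TATAAA on the sense strand (TATA box), and each window is written 5' to 3' in the direction of its gene. The windows lie at chr9:111019042-111019291 on the plus strand for Ltf, chr9:109849457-109849706 on the minus strand for Camp, chr3:106167565-106167814 on the minus strand for Chil3 and chr3:106219480-106219729 on the minus strand for Chil4.
Ltf: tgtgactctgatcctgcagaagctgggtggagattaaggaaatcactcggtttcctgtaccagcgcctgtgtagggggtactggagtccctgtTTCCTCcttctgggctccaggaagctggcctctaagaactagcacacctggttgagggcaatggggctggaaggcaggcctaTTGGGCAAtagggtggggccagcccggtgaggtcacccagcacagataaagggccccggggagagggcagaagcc
Camp: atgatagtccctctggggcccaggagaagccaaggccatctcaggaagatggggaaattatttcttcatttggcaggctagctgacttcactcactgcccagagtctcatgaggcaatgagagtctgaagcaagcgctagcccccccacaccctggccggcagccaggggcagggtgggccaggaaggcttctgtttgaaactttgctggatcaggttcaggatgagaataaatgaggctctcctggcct
Chil3: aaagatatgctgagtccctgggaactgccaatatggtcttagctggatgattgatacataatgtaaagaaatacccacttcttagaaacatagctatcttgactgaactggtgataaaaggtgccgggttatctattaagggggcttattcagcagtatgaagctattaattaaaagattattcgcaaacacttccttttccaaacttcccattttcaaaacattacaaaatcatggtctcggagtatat
Chil4: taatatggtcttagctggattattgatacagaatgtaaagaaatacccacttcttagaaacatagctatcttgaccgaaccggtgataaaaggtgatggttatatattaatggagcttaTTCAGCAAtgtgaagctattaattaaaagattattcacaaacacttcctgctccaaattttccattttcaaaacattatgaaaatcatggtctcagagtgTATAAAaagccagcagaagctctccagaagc

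Ltf had TTGGGCAA beginning 75 bases before its start and TTCCTC, the reverse of the PU.1 core, 157 bases before it, while the windows of Camp and Chil3 held no complete match of the 3 motifs. TTNNGCAA was present in 5 of the 8 windows (Ltf, Ngp, Lcn2, Mmp8 and S100a9) and in 9.56% of the 32851 RefSeq windows of this length. GAGGAA was present in 4 of the 8 (Ltf, Lcn2, Mmp8 and S100a8), against 23.3% of all windows, and TATAAA in 1 of the 8, S100a8, against 7.59%. These are matches of letters and were not tested for binding. The Chil3 and Chil4 windows aligned over 222 columns with 201 identical bases (90.5%), 19 mismatches and 2 gap columns. Chil4 had TTCAGCAA 131 bases and TATAAA 31 bases before its start. The Chil3 window ends inside a TATAAA whose first base lies 3 bases before the RefSeq start, so the missing match comes from where the window ends. Over all 300 bases that the table holds per gene, which run past the start, TATAAA was present in 3 of the 8 (S100a8, S100a9 and Chil3), against 8.32% of all entries, and the counts for the other 2 motifs were again 5 and 4 (10.8% and 28.3% of all entries).

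The arrays had median signals between 65.1 and 79.5, and 27 bacterial controls had a 95th percentile of 21.8 to 38.0. Signal is the deposited linear intensity. Of 10 markers of stem and multipotent progenitor cells, 8 had a probe set of their own here, and 0 of those lay at or below the controls on every array. Their summed signal was 13191 to 15501 in C57B/L6 and 12011 to 14019.7 in B.D(Chr5). The 95th percentile of the controls lay below the median signal of the arrays, so most probe sets clear it. Lying above the controls is therefore no test of the progenitor label. In the strain comparison described next, 7 of the 8 had a log2 difference below 0, and 0 of these passed. The 8th, Slamf1, passed and was higher in B.D(Chr5). The median of all 8 was -0.22, and at an unadjusted p under 0.05, 1 was higher and 1 lower. All 10 granule genes also lay above the controls on all 6 arrays, a low bar for them as well, although their RNA marks later stages. In these bulk samples a difference in the number of maturing cells and a difference in granule RNA per cell cannot be told apart. Replicate 3 of B.D(Chr5) stood apart for these genes: it had the highest signal of the 6 arrays in 9 of the 9 genes other than Chil3, against 21.5% of the 22518 probe sets tested. That array also had the highest median signal, 79.5, and the highest 95th percentile of the controls, 38.0, so it stood apart in more than these genes. The differences of these genes are therefore given with and without it.

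The comparison asked which of these genes differed between the strains. Chil3 was the 1 member past the threshold and was 2.87-fold lower in B.D(Chr5), whereas 8 of the other 9 had a log2 difference above 0 (50.1% of all probe sets tested did) and 0 of them passed. Differences were taken on log2(signal + 16) and tested with limma, with p-values adjusted by Benjamini-Hochberg over all 22518 tested probe sets; 0.182% of these passed an adjusted p of 0.05, 0.0977% higher and 0.0844% lower in B.D(Chr5). At an unadjusted p under 0.05, 6 of the 9 genes were higher and 0 lower, against 2.18% and 2.56% of all probe sets (4.75% in either direction). In 7 of the 9, all B.D(Chr5) arrays lay above all C57B/L6 arrays, against 4.16% of all probe sets; with Chil3, 8 of the 10 genes did not overlap, against 9.4%. The median log2 difference of the 9 genes was 0.42, with a range of -0.0083 to 1.01, and that of all probe sets tested was 2.51e-04. Without B.D(Chr5) replicate 3 the median of the 9 was 0.21.

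**Figure D1:**
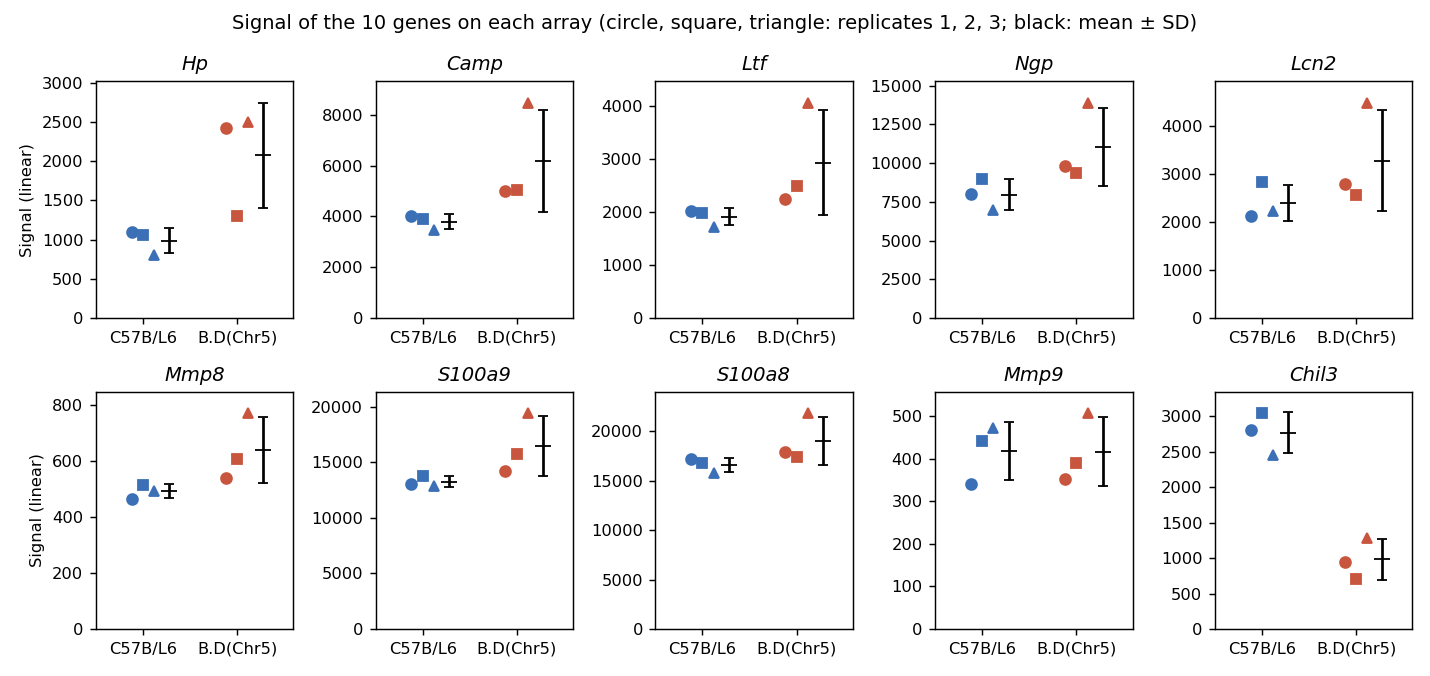
Signal of each gene (linear scale from 0) on the 3 C57B/L6 arrays in blue and the 3 B.D(Chr5) arrays in red, with circles, squares and triangles for replicates 1, 2 and 3 and the mean ± SD in black, in the order of the log2 difference. The triangle of B.D(Chr5) is the highest point for every gene except Chil3, whose B.D(Chr5) arrays read 711 to 1283 against 2462 to 3045 in C57B/L6.

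Lactoferrin and lipocalin-2 are the iron-withholding proteins of the secondary granule. Ltf, which encodes the iron-binding protein lactoferrin, had signals of 2021, 1983 and 1729 on the C57B/L6 arrays and 2251, 2491 and 4066 on the B.D(Chr5) arrays. The strains did not overlap, and replicate 3 of B.D(Chr5) lay far above the other two. The means were 1911 ± 159 and 2936 ± 986 (SD, n = 3 each), a log2 difference of 0.57 with a 95% interval of 0.14 to 0.996 (limma adjusted p = 0.861), and 0.31 without B.D(Chr5) replicate 3. Lcn2, which encodes the siderophore-binding protein lipocalin-2, read 2125, 2830.4 and 2221 in C57B/L6 and 2791, 2553 and 4478 in B.D(Chr5). Here the strains overlapped, since C57B/L6 replicate 2 lay above both of the lower B.D(Chr5) arrays. Its log2 difference was 0.42 with an interval of -0.022 to 0.86, and it did not pass (limma adjusted p = 1.00). Without B.D(Chr5) replicate 3 the difference was 0.17.

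Camp and Ngp encode cathelin-type proteins stored in the same granule. Camp, the precursor of the cathelicidin antimicrobial peptide, read 4009.5, 3909.6 and 3452 in C57B/L6 and 4980.2, 5027 and 8473 in B.D(Chr5). The order of the 6 arrays was the same as for Ltf, and the strains did not overlap. The means were 3790.3 ± 297 and 6160.2 ± 2003 (SD, n = 3 each), a log2 difference of 0.65 with an interval of 0.25 to 1.06 (limma adjusted p = 0.594), and 0.40 without B.D(Chr5) replicate 3. Ngp, neutrophilic granule protein, read 7998, 8949.5 and 6976 in C57B/L6 and 9806, 9364 and 13905 in B.D(Chr5). The lowest B.D(Chr5) array lay just above the highest C57B/L6 array. Its log2 difference was 0.45 with an interval of 0.12 to 0.78 (limma adjusted p = 0.839), and 0.27 without B.D(Chr5) replicate 3.

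The matrix metalloproteinases split. Mmp8, neutrophil collagenase of the secondary granule, read 464, 515 and 493 in C57B/L6 and 539, 605 and 769 in B.D(Chr5), with no overlap between strains. Its log2 difference was 0.35 with an interval of 0.033 to 0.67 (limma adjusted p = 1.00), and 0.21 without B.D(Chr5) replicate 3. Mmp9, gelatinase B, which is stored mainly in the later gelatinase granules, read 341, 442 and 472 in C57B/L6 and 352, 391 and 507 in B.D(Chr5) on its brighter probe set. The strains overlapped almost completely, and the log2 difference was -0.0083 with an interval of -0.40 to 0.38; without B.D(Chr5) replicate 3 it was -0.15. The second Mmp9 probe set read 241, 437 and 311 against 357, 323 and 444, also overlapping, with a log2 difference of 0.20 and an interval of -0.27 to 0.68. The sign of the Mmp9 difference thus depended on the probe set, and the interval includes changes of the size seen for Mmp8.

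S100a8 and S100a9 encode the subunits of calprotectin, a calcium- and zinc-binding complex of the neutrophil cytosol that is made from the myelocyte stage on. S100a8 read 17224, 16787.5 and 15795 in C57B/L6 and 17900.2, 17441 and 21837 in B.D(Chr5). S100a9 read 13085, 13789 and 12893 in C57B/L6 and 14195, 15757.5 and 19404 in B.D(Chr5). Neither gene overlapped between the strains, but the lowest B.D(Chr5) array lay close to the highest C57B/L6 array in both. The log2 differences were small, 0.19 with an interval of -0.011 to 0.40 for S100a8 and 0.30 with an interval of 0.064 to 0.54 for S100a9 (limma adjusted p = 1.00 and 0.905). Without B.D(Chr5) replicate 3 they were 0.091 and 0.17. The highest signal of any probe set on an array was 31845 to 38835, so these genes were read in the upper part of the range.

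Hp showed the largest difference in the upward direction. Hp encodes haptoglobin, the haemoglobin-binding plasma protein that maturing granulocytes also store in their granules. It read 1102, 1057.5 and 806 in C57B/L6 and 2419.8, 1304 and 2506 in B.D(Chr5). The strains did not overlap, and within B.D(Chr5) the arrays of replicates 1 and 3 were high and that of replicate 2 was lower. The means were 989 ± 159.7 and 2077 ± 670.5 (SD, n = 3 each), a log2 difference of 1.01 with an interval of 0.49 to 1.53 (limma adjusted p = 0.337). It was 0.85 without B.D(Chr5) replicate 3. It passed without B.D(Chr5) replicate 2, at 1.32 (limma adjusted p = 0.00728), and with each array centred on its median (limma adjusted p = 0.0188).

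Chil3 went against the other members. Its product, Ym1, is a chitinase-like lectin of immature neutrophils and alternatively activated macrophages that binds sugars without cleaving chitin. It read 2809, 3045 and 2462 in C57B/L6 and 948, 711 and 1283 in B.D(Chr5). Every B.D(Chr5) array lay below every C57B/L6 array, as in 5.24% of all probe sets, and the highest B.D(Chr5) array was again replicate 3. The means were 2772 ± 293 and 981 ± 287 (SD, n = 3 each). The log2 difference was -1.52 with an SE of 0.18 and an interval of -1.93 to -1.11 (limma adjusted p = 0.0116), and 0.0799% of the tested probe sets had a lower one. With any single array left out it lay between -1.73 and -1.31. The limma adjusted p was 0.0652, 0.0919 and 0.0508 when C57B/L6 replicate 1, 2 or 3 was left out, and 0.0773, 0.00838 and 8.33e-04 when replicate 1, 2 or 3 of B.D(Chr5) was. The call was also lost with a variance prior independent of the signal (limma adjusted p = 0.143) or with the replicate number as a block (0.0582).

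**Figure D2:**
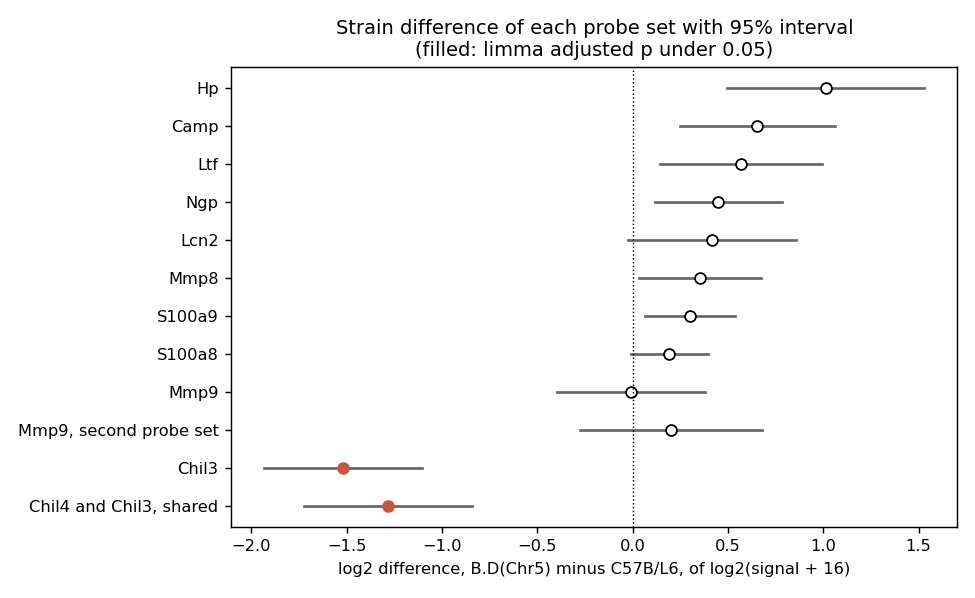
Log2 difference between the strains (B.D(Chr5) minus C57B/L6, of log2(signal + 16)) of all 12 probe sets, as points with 95% intervals from limma; filled points passed an adjusted p of 0.05. The 2 filled points are the Chil3 probe set at -1.52 and the probe set shared by Chil4 and Chil3 at -1.28, and the others lie between -0.0083 and 1.01.

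The probe set listed for both Chil4 and Chil3 followed Chil3. It read 1619, 1743 and 1375 in C57B/L6 and 635, 466 and 869 in B.D(Chr5), a log2 difference of -1.28 with an interval of -1.72 to -0.84 (limma adjusted p = 0.0479). Chil4 encodes Ym2, the near-identical relative, and its own probe set lay at or below the bacterial controls on all 6 arrays, with strain means of 20.4 ± 0.775 and 11.7 ± 8.52 (SD, n = 3 each, C57B/L6 first). Of the other relatives, Chia1, an active acidic chitinase, was also at or below the controls on all 6 arrays. Chit1, the macrophage chitotriosidase, was above them on 4 of 6 and was too dim to be tested, with means of 24.3 ± 16.0 and 60.6 ± 22.7. Chil1, a chitinase-like protein without enzyme activity, had means of 140.4 ± 28.3 and 195 ± 52.2 (SD, n = 3 each) and a log2 difference of 0.42 that did not pass (limma adjusted p = 1.00). Whether sequence variants between the strains lie under the Chil3 probes was not tested.

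The distance of Chil3 from the other 9 genes differed between the strains on all arrays. On the log2 scale, Chil3 minus the mean of the other 9 was 0.10, 0.11 and -0.018 on the C57B/L6 arrays and -1.75, -2.10 and -1.83 on the B.D(Chr5) arrays. The mean changed from 0.063 ± 0.070 to -1.89 ± 0.18 (SD, n = 3 each), a change of -1.96. Only its change between the strains has a meaning, since signals of different probe sets have no common scale. Without B.D(Chr5) replicate 3 the change was -1.99. Taken against single genes, the log2 ratio of Chil3 changed least against Mmp9, by -1.51, and most against Hp, by -2.53, and the B.D(Chr5) ratios did not overlap those of C57B/L6 for any of the 9. In the order of log2 differences (Hp, Camp, Ltf, Ngp, Lcn2, Mmp8, S100a9, S100a8, Mmp9, Chil3), the difference between each gene and the next had an interval that included 0, except for the step from Mmp9 to Chil3, which was 1.51 with an interval of 0.81 to 2.22. The genes were sorted by these same differences, which fixed the sign of each step. The intervals were not adjusted for the sorting, so they describe the steps and are no test.

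**Figure D3:**
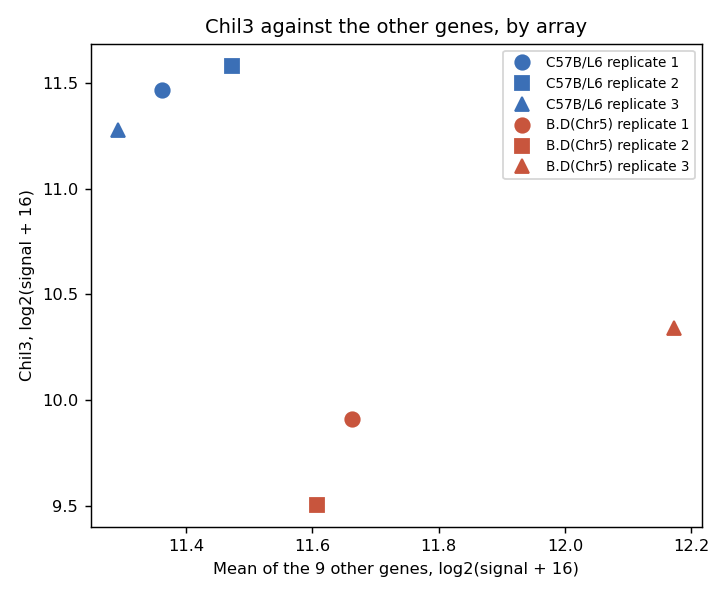
Chil3 against the mean of the 9 other genes on each array, both as log2(signal + 16), with C57B/L6 in blue and B.D(Chr5) in red. The red points lie lower than the blue ones, at 9.51 to 10.34 for Chil3 against 11.28 to 11.58, and further to the right, and within each strain the 3 arrays have the same order on both axes.

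Of the 9 genes other than Chil3, all but Mmp9 had a high correlation with Ltf over the arrays. Pearson's r of Ltf with each other gene was computed over the 6 arrays on the log2 scale, with an exact two-sided permutation p and Benjamini-Hochberg adjustment over 9 relations; the 9th is Chil3, for which no value over all arrays is given because its strains form separate clusters. It was 0.992 with Camp, with a permutation p of 0.00139, the smallest that 6 arrays can give (adjusted 0.0125; Spearman's rho 1.00, permutation p = 0.00278). It was 0.982 with S100a9 (permutation p = 0.00278, adjusted 0.0125; rho 0.943, p = 0.0167), 0.977 with S100a8 (permutation p = 0.00694, adjusted 0.015; rho 0.943, p = 0.0167), 0.960 with Ngp (permutation p = 0.00694, adjusted 0.015; rho 0.886, p = 0.0333) and 0.954 with Mmp8 (permutation p = 0.00833, adjusted 0.015; rho 0.829, p = 0.0583). These 5 passed; Lcn2 with r of 0.903 (permutation p = 0.0444, rho 0.486, p = 0.356) and Hp with r of 0.779 (permutation p = 0.0431, rho 0.943, p = 0.0167) both had an adjusted p of 0.0571. Mmp9 had r of 0.385 (permutation p = 0.504, adjusted 0.504; rho 0.0857, p = 0.919). For Spearman's rho the adjusted permutation p was 0.025 for Camp, 0.0375 for S100a8, S100a9 and Hp, 0.06 for Ngp, 0.0875 for Mmp8 and 0.4 for Lcn2. Of all tested probe sets, 1.02% had r over 0.9 with Ltf. These r values include the difference between strains, and the permutation shuffled arrays across strains, so its p does not measure co-variation within a strain. With strain means removed, r with Ltf was 0.990 for Camp, 0.963 for S100a8, 0.961 for S100a9, 0.915 for Ngp and 0.902 for Mmp8. It was 0.851 for Lcn2, 0.580 for Mmp9 and 0.459 for Hp. Over the 3 C57B/L6 arrays alone it was 0.999 for Camp, 0.984 for S100a8, 0.837 for Ngp, 0.583 for S100a9 and -0.205 for Mmp8.

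Much of this co-variation rested on a pair of arrays. When the third replicate of each strain was left out, the 2 arrays farthest from the median of Ltf, r was 0.931 with Camp, 0.920 with S100a9 and 0.889 with Mmp8, but 0.635 with S100a8, 0.632 with Ngp, 0.434 with Hp, 0.167 with Lcn2 and -0.131 with Mmp9. For Ngp, S100a8, Lcn2 and Hp the relation rests on those arrays. Replicate 3 of B.D(Chr5) exceeded the mean of replicates 1 and 2 of its strain by 0.78 in Ltf, 0.76 in Camp and 0.74 in Lcn2, and least in S100a8, by 0.31, all on the log2 scale. Over the 36 pairs of the 9 genes the median r was 0.905, and 0.634 without that array. Without it, 30 of the 36 pairs were positive, and r ran from -0.845 (Mmp9 with S100a8) to 0.964. Every negative pair included Mmp9. The pairs share the arrays and their scaling.

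With the difference between strains set aside, Chil3 mostly varied in the same direction as the other genes. Its strains form separate clusters of 3 arrays, too few for a correlation to be tested within them. With the strain means removed, r with the other 9 genes had a median of 0.861 and was positive for all 9, from 0.414 to 0.920; over the 36 pairs of the others the median was 0.855. The lowest was with Mmp9, whose deviations from the strain mean on the C57B/L6 arrays were -0.27, 0.090 and 0.18, against 0.024, 0.14 and -0.16 for Chil3. These values are a description, since the genes share the 6 arrays and their scaling. They were not computed without B.D(Chr5) replicate 3, in which Chil3 lay 0.42 above its strain mean. In C57B/L6 replicate 2, all 10 genes lay above their strain mean, and in B.D(Chr5) replicate 3 all 10 did, Chil3 included. In B.D(Chr5) replicate 2, 0 of the 10 did, and in replicate 1 of that strain 1 did. For C57B/L6 replicates 1 and 3 the counts were 6 and 2 of the 10. Deviations within a strain sum to 0, so a high array pushes the others down and the counts are not independent. 

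**Figure D4:**
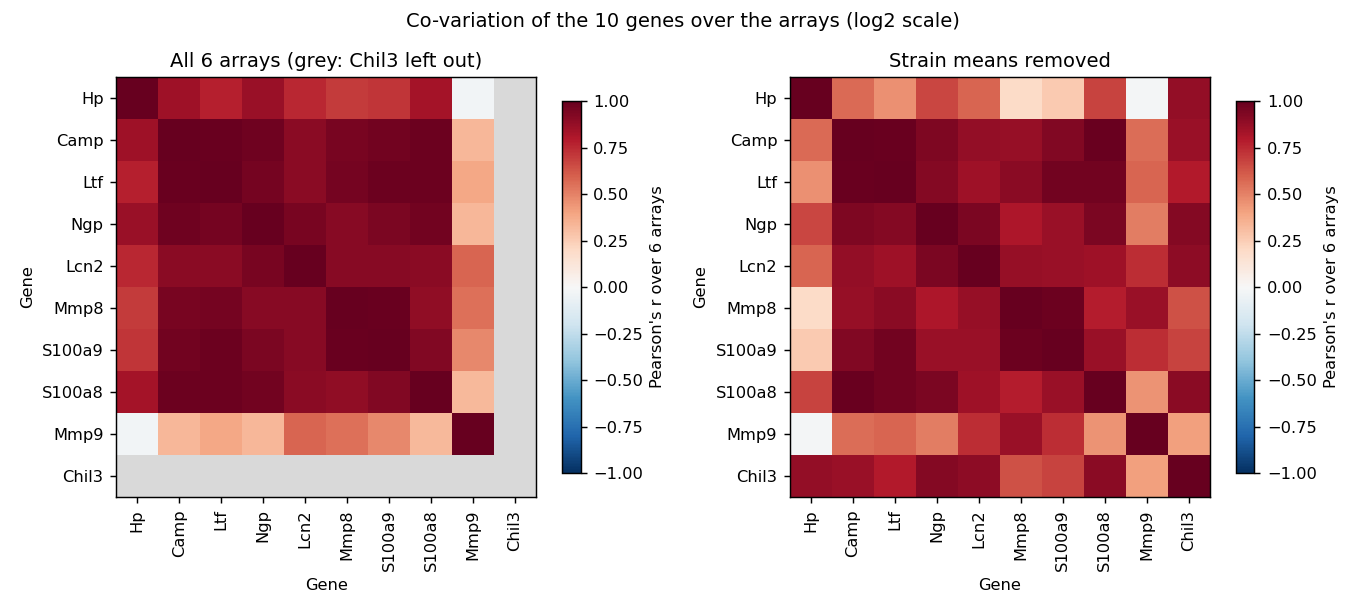
Pearson's r over the 6 arrays between each pair of genes on the log2 scale (colour, from -1 to 1), on the left over all arrays without Chil3 and on the right with strain means removed, genes ordered by strain difference on both axes. On the left the pairs outside Mmp9 are dark red, with a median of 0.905 over all 36 pairs, and on the right the Chil3 row is red as well, from 0.414 to 0.920.

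The genes most alike in pattern to the mean of the 9 were, over the 6 arrays and among 4894 genes that varied at least as much as the least variable of the 9, Srpk3 (r 0.993), Vpreb1 (0.989), Elmod2 (0.985), Pds5a (0.981), Igll1 (0.975) and A530088E08Rik (0.974). Vpreb1 and Igll1 encode the surrogate light chain of B cell precursors. None of the 6 passed the strain comparison (0 of 6 by limma; their adjusted p-values ran from 0.695 to 1.00). The genes most like Chil3 were Mettl14 (r 0.989), Ccrl2 (0.987), Sec24d (0.980), Cyp4f13 (0.980), Cngb1 (0.970) and Cd84 (0.970). Mettl14, Sec24d and Cd84 passed the strain comparison, with log2 differences of -2.14, -1.32 and -1.07, so these likenesses include the difference between strains.

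Mettl14 and Sec24d lie on chromosome 3, as Chil3 does. The other granule genes lie on chromosome 9 (Ltf, Camp, Ngp, Mmp8), 2 (Lcn2, Mmp9), 8 (Hp) and 3 (S100a8, S100a9). Chromosomes 9, 2 and 8 held 0 genes past the limma threshold, with 28 of 598, 31 of 850 and 32 of 582 tested genes at an unadjusted p under 0.05. Chromosome 3 held 9 passing genes besides Chil3, and 42 of its 513 tested genes (8.19%) were at an unadjusted p under 0.05. Over all tested probe sets, 0.182% passed and 4.75% were at an unadjusted p under 0.05. The 9 passing genes all lay on the same side of Chil3, from Fam102b at place 36 to Mettl14 at place 69, counted in tested genes. Of the 10 tested genes on each side of Chil3, 0 of 20 passed by limma and 2 had an unadjusted p under 0.05, Rbm15 and Lamtor5, with a median log2 difference of 0.0031. The nearest passing gene, Fam102b, was 36 tested genes away and higher in B.D(Chr5) by 1.11, and S100a8 and S100a9 were 112 and 111 tested genes away in the other direction. The 2 S100 genes, with differences of 0.19 and 0.30, had signs opposite to that of Chil3.

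**Figure D5:**
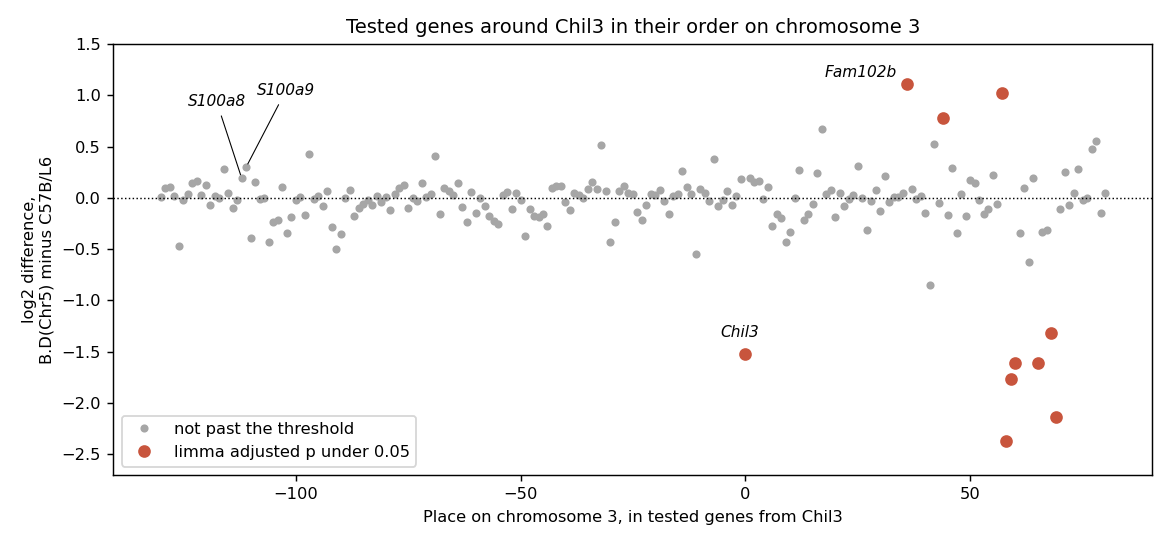
Log2 difference between the strains of the tested genes around Chil3 by their place in the gene order of chromosome 3, counted in tested genes from Chil3; red points passed limma and stand by their passing probe set, grey points by their brightest one. Chil3 is red at -1.52 among grey neighbours, the next red point is Fam102b at place 36, and S100a8 and S100a9 lie at places -112 and -111.

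Further genes of maturing neutrophils mostly had log2 differences above 0, and 0 passed the test. The list held 42 genes of the secondary and tertiary granules, the NADPH oxidase and late surface receptors. Of the 31 tested, 27 had a log2 difference above 0, 4 below 0, and 0 passed limma in either direction (10 higher and 0 lower at an unadjusted p under 0.05), with a median log2 difference of 0.30. Wfdc21, a whey acidic protein family member of neutrophils, had means of 726 ± 41.0 and 1150.2 ± 174 and a log2 difference of 0.64 (SD, n = 3 each; limma adjusted p = 0.179). Trem3, an activating receptor of myeloid cells, had a log2 difference of 0.84 (limma adjusted p = 0.556). The C-type lectin receptor gene Clec4d had -0.36 and the cytokine gene Il1b had -0.31, and neither passed. Summed over the list, the signal was 35927 to 42282 in C57B/L6 and 39211 to 57801 in B.D(Chr5), highest in replicate 3.

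The primary granule genes, which precede the secondary granule in maturation, had higher means in B.D(Chr5) for 10 of 10 tested genes. Of these, 0 passed limma and 6 were higher at an unadjusted p under 0.05, with a median log2 difference of 0.37. Ctsg, cathepsin G, had a log2 difference of 0.56 and Prtn3, proteinase 3, had 0.45 (limma adjusted p = 0.379 and 0.412). Their list differed from the secondary granule genes in which array was highest: its summed signal was 112130 in B.D(Chr5) replicate 1, 83710.3 in replicate 2 and 106724 in replicate 3, against 70956 to 80157 in C57B/L6.

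Regulators of neutrophil maturation also mostly had log2 differences above 0, with a smaller median than the 0.42 of the granule genes other than Chil3. Of 17 tested, 16 had a log2 difference above 0, 0 passed limma, 1 was higher and 0 lower at an unadjusted p under 0.05, and the median was 0.16. Cebpe, the gene of C/EBP-epsilon, had no probe set of its own here and was not tested. Cebpb, a C/EBP factor of emergency granulopoiesis, had a log2 difference of 0.54 (limma adjusted p = 0.871) and Cebpa, needed for granulocyte commitment, had 0.39 (adjusted p = 1.00). Lef1 had -0.24 and did not pass. Of the S100 relatives on chromosome 3, 0 of 5 passed limma and 1, S100a1, was at an unadjusted p under 0.05, with a log2 difference of 0.28; S100a13 had 0.050, S100a4 -0.10 and S100a6 -0.025.

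Summed markers of other cell types overlapped between the strains, and some were high on single B.D(Chr5) arrays. Taken gene by gene, 0 tested markers of these lists passed limma. Their median log2 difference was 0.96 for mast cells, basophils and eosinophils, 0.97 for stroma, bone and endothelium, and 0.55 for B cells. It was 0.17 for monocytes and macrophages, -0.052 for red cells, -0.14 for megakaryocytes and -0.56 for T and NK cells. The summed signal of 9 of 10 markers of mast cells, basophils and eosinophils was 7086 to 7438 in C57B/L6 and 7336 to 15710.2 in B.D(Chr5). Replicates 1 and 3 of B.D(Chr5) were high there as for Hp, and also in the sums of the primary granule genes and of the monocyte and macrophage markers. That of 9 of 11 monocyte and macrophage markers was 18950.1 to 23332 and 19456 to 28213, and that of 9 of 10 B cell markers was 6820 to 7992 and 6487 to 11770.8, highest in B.D(Chr5) replicate 3. Markers of T and NK cells, 8 of 10, summed to 1846 to 3217 and 1409 to 2271, with Cd4 at or below the controls on all arrays. Red cell markers, 8 of 10, summed to 39779 to 48468 and 39473 to 50759, megakaryocyte markers, 7 of 8, to 4811 to 6029 and 3878 to 5992, and markers of stroma, bone and endothelium, 9 of 10, to 801 to 2924 and 2514 to 4514. At an unadjusted limma p under 0.05, 5 of 7 tested markers of mast cells, basophils and eosinophils were higher in B.D(Chr5). So were 4 of 7 for stroma, bone and endothelium, and 3 of 8 for B cells. For monocytes and macrophages it was 1 of 8, and for red cells 1 of 7. Of T and NK cell markers 3 of 7 were lower, and of megakaryocyte markers 0 of 6 were higher or lower. Over all tested probe sets, 2.18% were higher and 2.56% lower. The part of these cells in the differences of the granule genes was not tested. The highest 18S ribosomal RNA signal ranged from 1726 to 20010.3 over the arrays and did not follow the granule genes, with 12554 in B.D(Chr5) replicate 3.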

How the data were processed

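RNA of 6 samples, 3 per strain, was measured on 1-colour Affymetrix arrays. The authors deposited linear intensity per probe set, which was computed by MAS5 per the submitters' processing notes; its version and options are not stated there. Each array's mean after trimming 2% at each end was 500. No 2 arrays were identical (0 pairs).

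Of 45101 probe sets, 64 controls were left out; 34945 had 1 platform symbol, 932 several and 9160 none, and 34741 of the first were updated through RefSeq identifiers (GRCm38.p6). The tested values were log2(signal + 16) of the upper 50% by mean, 22518 probe sets, with limma 3.58.1 in R 4.3.3 (lmFit, eBayes with trend, strain as the only term, two-sided, threshold 0.05). Fold changes are on that scale and are too small for dim probe sets. A gene stands by its brightest probe set. Intervals are 95% and come from the fit, except those of the steps between members, which are t intervals on per-array ratios. The fit was tested on simulated data. The array number limits the precision. Correlations used SciPy 1.17.1 and 720 permutations, alignments Biopython 1.88.

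The members and lists were chosen with earlier results of these data known; motifs were chosen after the values were seen. Named genes: all members and relatives of Chil3, passing genes and the 2 of smallest p in each direction of each list, and the 6 most alike in pattern; Rbm15, Lamtor5 and Fam102b were chosen after their values were seen. Alternatives covered pseudocounts, filter, scaling, variance prior, replicate block, probe set mean and single arrays left out.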

Additional observations from a re-analysis of the deposited data

How the results depend on the processing

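The call of Chil3 was lost in 6 alternatives. Its log2 difference was -1.52 without trend and with the replicate block, at adjusted p of 0.143 and 0.0582, and it was called under the other pseudocounts, without the filter, with quantile normalization, with median centring, over the mean of probe sets and on the shared probe set (added after the data were seen). With single arrays left out it ranged from -1.73 to -1.31. The count of called members was 1, lower; it was 2 with median centring (1 of them higher, Hp), 0 without trend and 0 with the block (0 lower in both), and 0 to 2 with single arrays left out (0 to 1 lower, 0 to 1 higher). The count of all called probe sets was 41, against 67 with median centring, 25 without trend, 27 with the block and 21 to 73 with single arrays left out. The mean over both probe sets turned the Mmp9 difference to 0.097, and single arrays left out moved it between -0.15 and 0.10. The cause of these changes was not tested. The members other than Mmp9 kept their direction in all 14 alternatives.

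The replicate number did not pair the arrays: same-numbered arrays had deviations correlated at -0.11, -0.20 and 0.20, and 2 of 6 arrays correlated best with their own number. With single arrays left out, the median log2 difference ranged from 0.21 to 0.56 for the 9 genes other than Chil3 and from 0.19 to 0.49 for all 10, lowest without B.D(Chr5) replicate 3, and the distance of Chil3 from the others from -2.03 to -1.85. The median r with Ltf was 0.957, and 0.824 without B.D(Chr5) replicate 3.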
